A study of Arabidopsis thaliana with 29 samples.

Results

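The response of Arabidopsis leaves to AMF4 at 6 h was read from 6 of the 29 libraries of a deposited transcript table, the 3 AMF4 and the 3 DMSO libraries of that time. AMF4 is a synthetic agonist of the abscisic acid (ABA) receptors made by adding fluorine atoms to the benzyl ring of AM1, an older agonist. AMF4-treated plants were Col-0 wild type, 3 weeks old, grown in soil and sprayed with the compound at 10 μM, and RNA was extracted from leaves 6 h later. Control plants were of the same ecotype and age and received the solvent DMSO. The same table holds 6 h libraries of plants sprayed with AMF1β, a relative of AMF4 that is also fluorinated, or with ABA at that dose (3 each), and 24 h libraries of AMF4 (2) and DMSO (3), which were used for comparison. The values are FPKM, fragments scaled to transcript length and to the fragments mapped in a library, so depth is taken out of them. Of 33559 genes listed, 18521 reached 1 FPKM in 2 or more libraries and were tested.

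ABA is the hormone through which plants slow water loss and protect cells during drought. It binds receptors of the PYR/PYL family, and the bound receptor inhibits clade A protein phosphatases 2C (PP2Cs). Kinases of the SnRK2 family are then free to act on bZIP factors (ABFs), which bind ABA-responsive elements (ABREs) in promoters, and on ion channels of guard cells. Many of the genes induced in this way encode the pathway's own brakes.

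A differentially expressed gene (DEG) had an adjusted p under 0.05 from limma and changed more than 2-fold either way (a fold change over 2 or under 0.5) in log2(FPKM + 1), a scale that understates the change of low genes. All log2 fold changes here are on that scale, as AMF4 minus DMSO at 6 h where nothing else is said. AMF4 gave 780 DEGs that were higher (4.21% of genes tested) and 806 that were lower (4.35%). The median log2 fold change of all genes tested was 0.10, and 0.04 after median-of-ratios scaling. With no test, the 3 AMF4 libraries lay all above the 3 DMSO libraries for 3675 genes (19.8%) and all below for 2704 (14.6%). Among the DEGs this held for 719 of those higher and 765 of those lower.

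The libraries were not alike. AMF4 replicate 1 listed 21835 genes at 1 FPKM or more, against 16265 to 16872 in the other 28 libraries, and 1642 transposable element genes at that level, against 57 to 154. It also held low values of genes that leaves are not known to use, such as the meristem gene WUS at 2.03 FPKM and the root gene COBL9 at 2.35 FPKM, where AMF4 replicates 2 and 3 had both at 0. Genes of the chloroplast genome summed to 67800, 55227 and 24379 FPKM in the 3 AMF4 libraries, against 23867, 31557 and 13908 FPKM in the 3 DMSO libraries. Of the tested organelle genes, 23 of 77 of the chloroplast and 12 of 33 of the mitochondrion were higher, and 3 and 0 of them were called without AMF4 replicate 1. The steps between low FPKM values put the relative depth of the AMF4 libraries at 0.38, 0.57 and 0.98 of the median 6 h library, and that of the DMSO libraries at 0.46, 1.06 and 0.92. Without AMF4 replicate 1 limma called 814 genes higher (4.46% of 18239) and 996 lower (5.46%), which included 645 of the 780 and 768 of the 806. Of the 780 and 806 DEGs, 424 and 472 were called in each of the 6 fits that left out 1 of the 6 libraries. Leaf light-harvesting transcripts were abundant in every library (LHCB1.3 at 10054 to 14855 FPKM with AMF4 and 16557 to 29068 FPKM with DMSO), while 7 flower markers summed to at most 1.90 FPKM with AMF4 and 0.98 FPKM with DMSO.

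Among ABA receptors PYL4 was lower with AMF4, while all tested clade A PP2Cs were higher. Of 14 ABA receptor genes 8 were tested, and 2 were DEGs, both lower, where 4.35% of all genes tested were lower. PYL4 (AT2G38310), a receptor that can act as a monomer, had 3.24, 2.44 and 3.92 FPKM in the AMF4 libraries, against 23.2, 21.5 and 22.1 FPKM in the DMSO libraries. The groups were far apart and each was tight, and limma gave a log2 fold change of -2.49 (SE 0.27) with an adjusted p of 3.47e-06. PYL2 (AT2G26040), a dimeric receptor, had 1.45, 1.89 and 1.17 FPKM with AMF4, against 209, 67.8 and 2.89 FPKM with DMSO. DMSO replicate 3 lay next to the AMF4 libraries, so the log2 fold change of -3.95 in limma (SE 0.92) with its adjusted p of 0.00334 rested on DMSO replicates 1 and 2, and was -0.65 and not called without them. The remaining receptors tested had log2 fold changes between -0.70 (PYL5) and 0.75 (PYL9) and were not called.

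Clade A PP2Cs are the phosphatases that the receptors inhibit. All 7 tested were DEGs and higher, with a median log2 fold change of 2.22, beside 0.10 for all genes. For each the 3 AMF4 libraries lay above the 3 DMSO libraries, against 19.8% over all genes tested. HAI1 (AT5G59220), whose name stands for highly ABA-induced, had 88.7, 58.8 and 42.7 FPKM with AMF4, against 7.31, 1.67 and 3.00 FPKM with DMSO. HAI2 (AT1G07430) had 65.2, 64.6 and 57.3 FPKM with AMF4, against 4.63, 4.09 and 3.94 FPKM with DMSO, and PP2CA, the most abundant of the 7 by FPKM with AMF4, had 291, 253 and 290 FPKM with AMF4, against 67.0, 50.5 and 39.8 FPKM with DMSO. Their log2 fold changes were 3.79 (SE 0.42), 3.6 (SE 0.30) and 2.41 (SE 0.21), with adjusted p of at most 3.47e-06 from limma. ABI1 and ABI2, the phosphatases first found through ABA-insensitive mutants, had log2 fold changes of 1.45 and 2.22. HAB1 and HAB2 had 1.78 and 1.055, and HAB2 fell under the fold threshold without AMF4 replicate 3 (0.99) and without DMSO replicate 3 (0.95). AHG1 and HAI3, the other 2 of the list, were under the filter on low values.

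**Figure D1:**
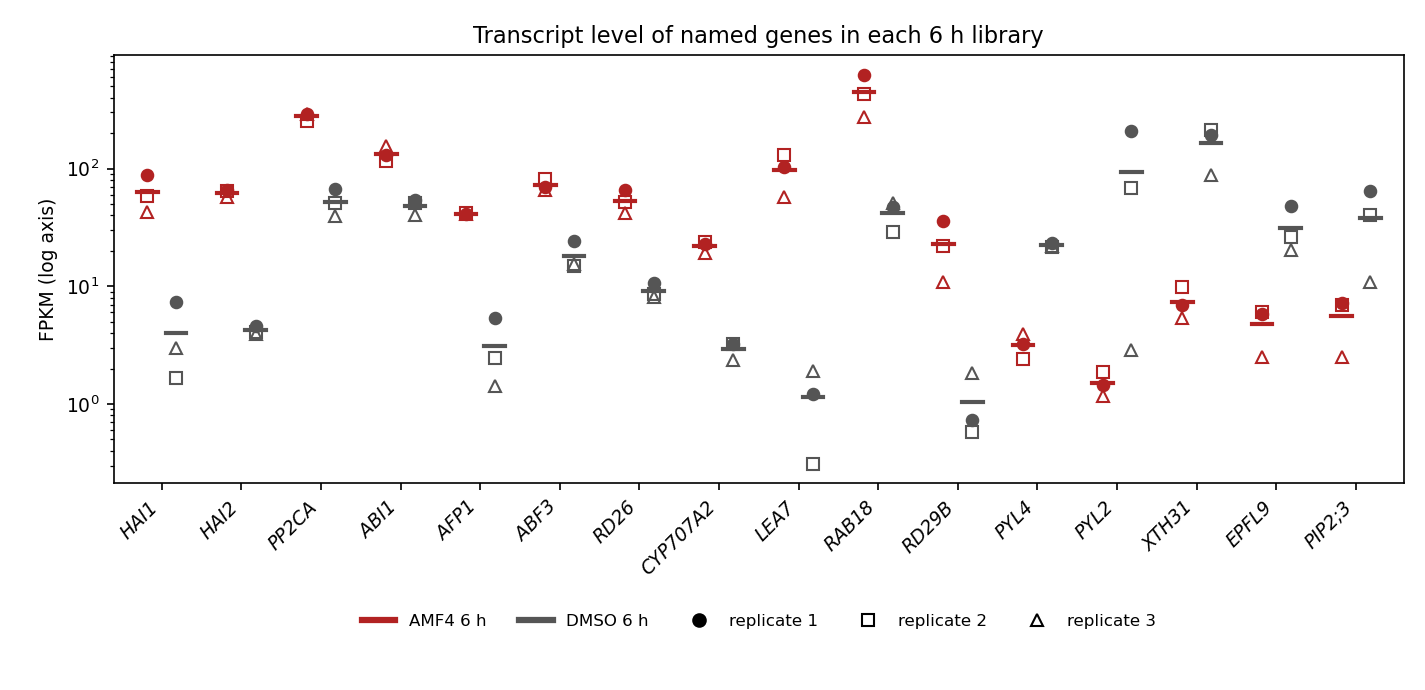
FPKM on a log axis for 16 named genes in each of the 3 AMF4 (red, left of each pair) and 3 DMSO (grey, right) libraries at 6 h, with the symbol giving the replicate and the bar the mean. HAI2 sits at 57.3 to 65.2 FPKM with AMF4, against 3.94 to 4.63 FPKM with DMSO, while PYL2 spans 2.89 to 209 FPKM within DMSO.

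In the kinase lists 1 or 2 genes each were called, all higher, where 4.21% of all genes tested were higher. Of 8 SnRK2 genes tested, SNRK2.7 was the single DEG (4.3, 4.1 and 2.57 FPKM with AMF4, against 0.65, 0.73 and 0.94 FPKM with DMSO). OST1, the SnRK2 that drives stomatal closure, had 16.3, 21.9 and 20.6 FPKM with AMF4, against 13.5, 11.3 and 9.96 FPKM with DMSO, a log2 fold change of 0.71 that stayed under the fold threshold (adjusted p = 0.00152 from limma). Downstream of the SnRK2s, 7 of 12 ABF factors and AFP repressors were higher and 0 lower, with a median of 1.15. ABF3, a bZIP factor that binds ABREs, had 70.2, 81.8 and 66.3 FPKM with AMF4, against 24.0, 14.8 and 15.6 FPKM with DMSO. AFP1, which binds ABI5 and restrains it, had 41.2, 41.8 and 41.3 FPKM with AMF4, against 5.43, 2.48 and 1.41 FPKM with DMSO. The AMF4 libraries of AFP1 differed by under 1 FPKM. ABI5 itself was low (2.97, 3.35 and 3.1 FPKM with AMF4, against 1.18, 0.57 and 0.65 FPKM with DMSO) and had a log2 fold change of 1.21. ABF2, GBF3, AFP3 and AFP4 were also higher, AFP4 with a log2 fold change of 0.96 without AMF4 replicate 1, under the fold threshold. ABA-linked MAP kinases gave 2 of 10 higher, MAPKKK17 and MAPKKK18, and CIPK kinases 2 of 10, CIPK6 and CIPK25, of which CIPK6 was not called without AMF4 replicate 2. MPK3 and CIPK7 were not called, at log2 fold changes of 0.52 and 0.60.

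Of genes that remove ABA most were higher, and the list of genes that make it was too short to read its lack of calls. Of 6 ABA catabolism genes 5 were higher, among them the 4 ABA 8′-hydroxylases CYP707A1 to CYP707A4. CYP707A2 had 23.0, 24.0 and 19.1 FPKM with AMF4, against 3.21, 3.24 and 2.38 FPKM with DMSO (log2 fold change 2.55, SE 0.22), and CYP707A1 had 7.87, 5.55 and 12.9 FPKM with AMF4, against 0.86, 0.61 and 0.41 FPKM with DMSO. The fifth, the ABA glucosyltransferase gene UGT71B6, had a log2 fold change of 1.11 and was not called without AMF4 replicate 1 (0.90) or without DMSO replicate 1 (0.998). Of 8 genes of ABA synthesis and release 0 were called by limma, with 3 at an unadjusted p under 0.05, against 7569 of all 18521 tested. Over all genes tested 4.21% were higher and 4.35% lower, so a count of 0 among 8 genes is near that share. In 4 of the 8 all AMF4 libraries lay above all DMSO libraries, against 19.8% over all genes tested. ABA1 at 0.69 and AAO3 at 0.77 had an adjusted p under 0.05 and a change under the fold threshold. NCED3, which encodes the enzyme of the committed step, had 6.59, 4.31 and 5.53 FPKM with AMF4, against 7.34, 8.13 and 4.11 FPKM with DMSO, and these ranges overlapped. The ABA exporter gene ABCG25 was higher (5.36, 6.11 and 6.18 FPKM with AMF4, against 2.01, 2.84 and 1.38 FPKM with DMSO), as the single DEG of 6 transport genes.

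Dehydrins and other late embryogenesis abundant (LEA) proteins, hydrophilic proteins that accumulate in seeds and in drying leaves, held some of the highest fold changes. Of 13 LEA genes other than dehydrins 8 were higher (7 without AMF4 replicate 1), with a median log2 fold change of 1.36. Among all genes tested 4.21% were higher. LEA7 (AT1G52690) had 103, 131 and 57.7 FPKM with AMF4, against 1.22, 0.31 and 1.90 FPKM with DMSO, which limma put at 5.51 on the log2 scale (SE 0.47) with an adjusted p of 2.8e-07. LEA4-5 (AT5G06760) had 55.2, 30.7 and 31.2 FPKM with AMF4, against 2.13, 1.2 and 3.18 FPKM with DMSO. The seed protein gene EM6 had 9.30, 8.43 and 6.71 FPKM with AMF4 and was listed at 0, 0 and 0.32 FPKM with DMSO. Of 10 seed storage and oil body genes 0 passed the filter on low values. Of 7 dehydrins 5 were higher. RAB18 (AT5G66400) had 628, 428 and 276 FPKM with AMF4, against 46.7, 29.1 and 50.5 FPKM with DMSO, and COR47 had 1453, 1691 and 1361 FPKM with AMF4, against 478, 465 and 282 FPKM with DMSO. Among 17 dehydration and cold markers and DREB factors 9 were higher, and 6 to 10 when 1 library was left out, with 6 without DMSO replicate 3. KIN2 and CBF3 were not called without AMF4 replicate 1. RD29B (AT5G52300), a standard ABA reporter gene, had 36.2, 21.8 and 10.8 FPKM with AMF4, against 0.73, 0.58 and 1.83 FPKM with DMSO.

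Promoters were read as the 250 bases before the annotated gene start in RefSeq's TAIR10.1 assembly, for 718 of the DEGs that were higher, 795 of those that were lower and 17813 of all genes tested. They were searched on both strands for 3 ABRE cores (the letters ACGTGG, the letters ACGTGT and the letters ACGTGNC, which can overlap each other and the G-box, spelled CACGTG). Any of the 3 cores stood in 37.9% of promoters of genes that were higher, 16.4% of those that were lower and 18.9% of all. By core the shares in the same order were 20.3%, 7.5% and 9.2% for ACGTGG, 27.9%, 9.1% and 11.5% for ACGTGT, and 22.0%, 8.3% and 9.9% for ACGTGNC. The G-box CACGTG stood in 18%, 5.2% and 7.7%, the core CCGAC of the dehydration-responsive element in 125 of 718, 101 of 795 and 2370 of 17813, and the evening element AAAATATCT in 3.5%, 2.5% and 2.6%. These shares are descriptions of letters with no test. Among single promoters read for ABRE core sites, that of AFP1 held 2 and that of XTH31 held 0, and these are not shown. Site counts of EM6 and COR47 are not given here. The promoters of RD29B, RAB18, LEA4-5 and LEA7 are shown as picked examples that hold 3 or 4 sites each. Those of HAI1, among the genes with the highest fold changes, and PYL4, which was lower, are shown because they hold 0 in this window. Each runs 5′ to 3′ and ends at the base before the gene start, with the ABRE cores in capitals.
RD29B (chr5:21236771-21237020, plus strand): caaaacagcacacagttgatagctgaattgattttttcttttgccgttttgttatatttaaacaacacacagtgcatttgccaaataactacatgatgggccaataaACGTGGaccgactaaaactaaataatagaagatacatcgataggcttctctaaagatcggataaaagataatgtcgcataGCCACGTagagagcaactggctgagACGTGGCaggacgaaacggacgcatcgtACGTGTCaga
RAB18 (chr5:26519448-26519697, minus strand): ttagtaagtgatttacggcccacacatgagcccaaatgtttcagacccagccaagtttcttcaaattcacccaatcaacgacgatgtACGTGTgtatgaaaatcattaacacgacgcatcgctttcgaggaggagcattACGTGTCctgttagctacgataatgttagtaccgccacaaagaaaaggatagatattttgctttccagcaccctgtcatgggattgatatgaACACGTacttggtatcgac
LEA4-5 (chr5:2090431-2090680, minus strand): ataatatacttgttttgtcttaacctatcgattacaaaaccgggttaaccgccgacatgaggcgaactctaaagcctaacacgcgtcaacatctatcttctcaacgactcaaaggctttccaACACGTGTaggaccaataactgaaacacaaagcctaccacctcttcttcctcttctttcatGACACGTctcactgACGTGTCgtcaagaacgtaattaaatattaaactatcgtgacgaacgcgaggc
LEA7 (chr1:19619474-19619723, plus strand): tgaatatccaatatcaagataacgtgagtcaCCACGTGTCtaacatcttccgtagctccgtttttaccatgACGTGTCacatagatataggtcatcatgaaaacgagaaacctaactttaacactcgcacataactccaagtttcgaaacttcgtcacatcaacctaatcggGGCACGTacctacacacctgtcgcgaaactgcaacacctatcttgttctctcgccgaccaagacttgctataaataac
HAI1 (chr5:23896940-23897189, minus strand): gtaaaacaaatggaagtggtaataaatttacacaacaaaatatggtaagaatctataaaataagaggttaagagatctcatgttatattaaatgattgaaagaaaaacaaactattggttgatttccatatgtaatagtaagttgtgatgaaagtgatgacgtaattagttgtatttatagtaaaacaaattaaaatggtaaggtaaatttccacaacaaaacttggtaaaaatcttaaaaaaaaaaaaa
PYL4 (chr2:16049668-16049917, plus strand): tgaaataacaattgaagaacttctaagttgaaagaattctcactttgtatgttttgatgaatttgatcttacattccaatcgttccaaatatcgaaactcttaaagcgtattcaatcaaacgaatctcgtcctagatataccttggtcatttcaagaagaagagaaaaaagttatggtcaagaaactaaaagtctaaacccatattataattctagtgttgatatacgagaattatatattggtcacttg

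Transcription factors tied to drought and senescence were higher in several families. Of 12 NAC factors 7 were higher and 0 lower, where 4.21% of all genes tested were higher and 4.35% lower. NAC019 had 112, 66.4 and 108 FPKM with AMF4, against 17.3, 7.69 and 7.83 FPKM with DMSO, and RD26, a NAC factor of dehydration and ABA responses, had 65.4, 51.9 and 42.2 FPKM with AMF4, against 10.6, 8.53 and 8.05 FPKM with DMSO. ORE1 and NAP, NAC factors that promote leaf senescence, had log2 fold changes of 1.93 and 2.45. Of 7 HD-Zip I factors HB7 (2.57) and HB12 (1.78) were higher. Among 13 R2R3 MYB factors 6 were higher, led by MYB74 (12.7, 22.4 and 15.6 FPKM with AMF4, against 0.58, 0.96 and 0.62 FPKM with DMSO), and MYB20 was lower. MYB60, a guard cell factor that promotes opening of stomata, had 4.99, 4.67 and 3.02 FPKM with AMF4, against 8.02, 8.72 and 10.4 FPKM with DMSO. Its groups did not overlap and its log2 fold change of -0.96 lay just inside the fold threshold, past which it went without AMF4 replicate 1 (-1.07), AMF4 replicate 2 (-1.03) or DMSO replicate 1 (-1.03).

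Some chlorophyll breakdown genes were higher with AMF4, and some genes of the photosynthetic apparatus were lower. Among all genes tested 4.21% were higher and 4.35% lower. Of 15 genes of chlorophyll breakdown and senescence 5 were higher, namely the stay-green genes SGR1 (not called without AMF4 replicate 3) and SGR2, the pheophytinase gene PPH, the oxygenase gene PAO and the senescence marker SAG13. PAO had 90.9, 123 and 168 FPKM with AMF4, against 41.0, 39.7 and 33.6 FPKM with DMSO. Of 29 light-harvesting and Rubisco small subunit genes 5 were lower and 0 higher, with a median log2 fold change of -0.55, and 20 had all AMF4 libraries below all DMSO libraries (background 14.6%). The number of lower DEGs was 2 without AMF4 replicate 3, 2 without DMSO replicate 1, 3 without DMSO replicate 2, 7 without AMF4 replicate 1 and 9 without DMSO replicate 3. RBCS1B had 992, 861 and 599 FPKM with AMF4, against 4320, 4078 and 2314 FPKM with DMSO, and held its call in each of these fits. Members of this family are near-identical in sequence, so their split is uncertain. In whole leaves, fewer cells of a type and less RNA per cell cannot be told apart.

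**Figure D2:**
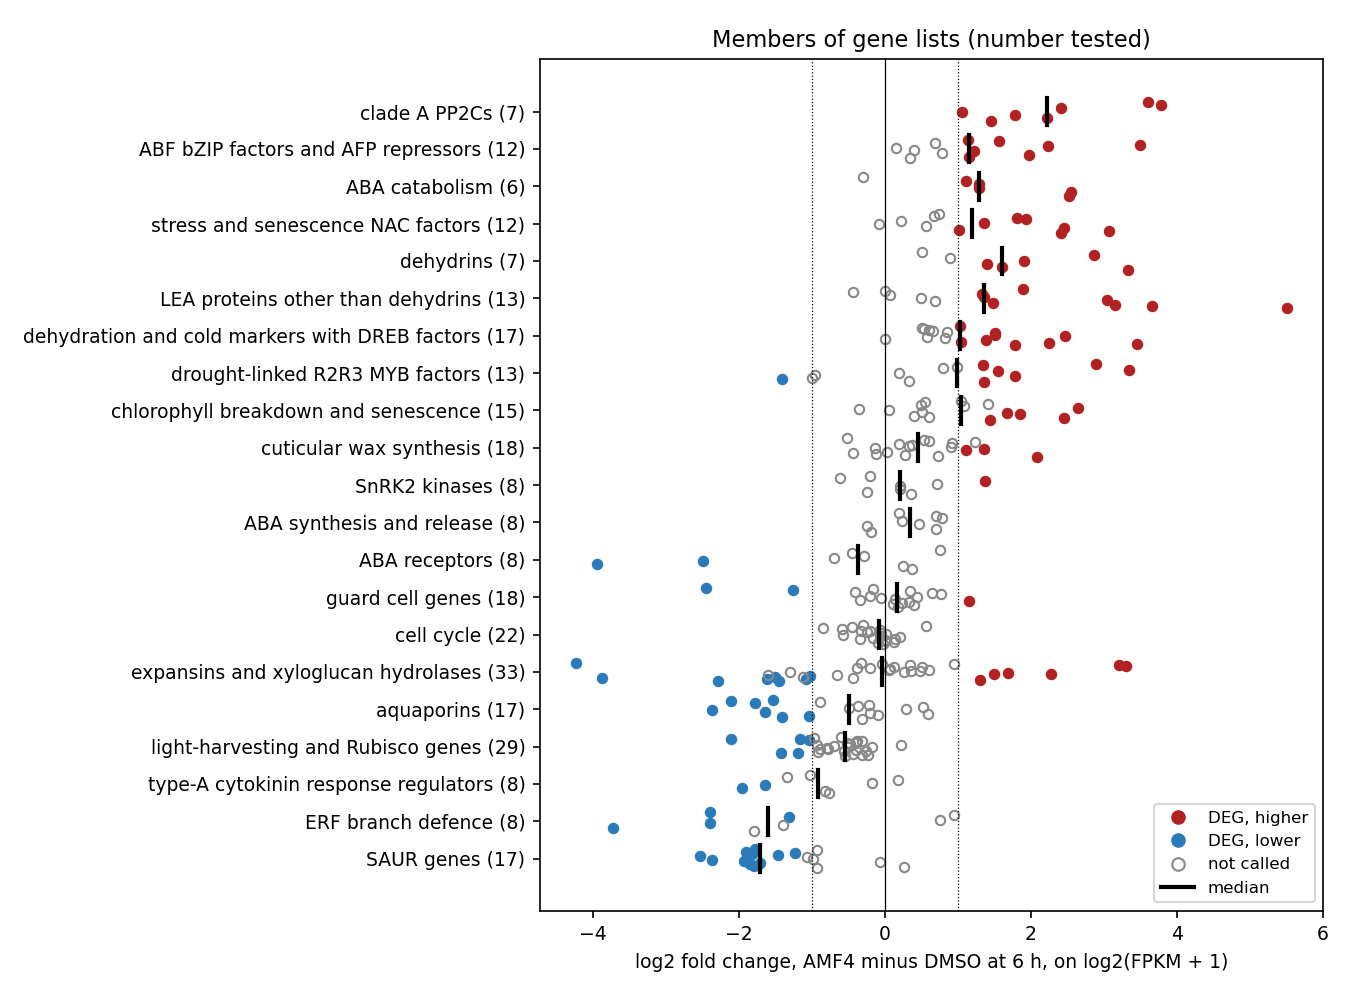
Log2 fold change at 6 h, AMF4 minus DMSO on the log2(FPKM + 1) scale, of each tested member of 21 gene lists (number of members in brackets), with DEGs that were higher in red, DEGs that were lower in blue, uncalled genes as open circles and the list median as a black bar. The 7 PP2Cs all lie right of 1, and 11 of 17 SAUR genes are DEGs left of -1.

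Among the growth-related lists described here, that of the SAUR genes had the highest share of lower members. SAUR genes are short auxin-induced genes that promote cell expansion, and 11 of 17 were lower and 0 higher (median log2 fold change -1.72). For 14 of 17 all AMF4 libraries lay below all DMSO libraries, against 14.6% over all genes tested. SAUR14 had 40.0, 38.8 and 23.8 FPKM with AMF4, against 135, 103 and 118 FPKM with DMSO, and SAUR21 had 3.8, 2.13 and 2.3 FPKM with AMF4, against 16.9, 17.7 and 19.6 FPKM with DMSO. The count stood between 11 and 13 in the 6 fits that left out a library. The SAUR genes share sequence and stand in clusters, so reads may be split between them. Expansins and xyloglucan hydrolases, which loosen and remodel cell walls, went both ways, with 6 of 33 higher and 8 lower (5 lower without AMF4 replicate 3). XTH31 (AT3G44990), a xyloglucan hydrolase gene, had 6.92, 9.92 and 5.33 FPKM with AMF4, against 191, 213 and 88.6 FPKM with DMSO, and its log2 fold change of -4.24 (SE 0.61) was the most negative among the 12 lower genes picked by size. EXPA8 had 2.08, 0.94 and 0.54 FPKM with AMF4, against 26.4, 17.7 and 55.9 FPKM with DMSO. XTH24, in contrast, had 224, 156 and 534 FPKM with AMF4, against 24.96, 27.2 and 26.03 FPKM with DMSO, and the expansin gene EXPA16 had 213, 296 and 251 FPKM with AMF4, against 14.8, 22.6 and 13.1 FPKM with DMSO. Type-A cytokinin response regulators were lower in 2 of 8, ARR6 and ARR7, and ARR6 was not called without DMSO replicate 1 or AMF4 replicate 3. Aux/IAA and GH3 genes split 3 higher and 3 lower of 17, and 1 was lower without AMF4 replicate 3. The auxin-conjugating enzyme genes GH3.5 (2.03) and GH3.6 (2.06) were among those higher. Of 22 cell cycle genes 0 were called by limma, with 3 at an unadjusted p under 0.05. Among all 18521 genes tested 7569 had such a p, and 4.21% were called higher and 4.35% lower.

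Of 17 genes of aquaporins, which are water channels, 7 were lower, 0 higher and 10 uncalled, with a median log2 fold change of -0.49 and a highest value of 0.59. PIP1;2, a plasma membrane aquaporin, had 232, 273 and 201 FPKM with AMF4, against 867, 688 and 400 FPKM with DMSO. PIP2;3 had 7.2, 7.0 and 2.5 FPKM with AMF4, against 64.2, 40.0 and 10.8 FPKM with DMSO, and TIP1;1, an aquaporin of the vacuole membrane, had 191, 157 and 93.8 FPKM with AMF4, against 596, 676 and 284 FPKM with DMSO. In each of the 3 genes DMSO replicate 3 was the lowest DMSO library and AMF4 replicate 3 the lowest AMF4 library, and none was called with DMSO replicate 3 as the only control. The count of lower aquaporins was 5 to 8 when 1 library was left out. In the guard cell list, which includes peptide genes of stomatal formation, 3 of 18 were called, 1 higher and 2 lower. Among all genes tested 4.21% were higher and 4.35% lower, for this list and the aquaporins alike. ALMT12, an anion channel that takes part in stomatal closure, was higher (7.50, 8.92 and 5.90 FPKM with AMF4, against 2.37, 3.27 and 2.66 FPKM with DMSO). EPFL9, the peptide stomagen that promotes the formation of stomata, was lower (5.87, 6.03 and 2.52 FPKM with AMF4, against 47.8, 26.0 and 20.5 FPKM with DMSO). EPF1, a peptide that restrains it, was also lower, with a log2 fold change of -1.26 (-0.88 and not called without DMSO replicate 1).

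Osmolyte and defence genes were called in part, where 4.21% of all genes tested were higher and 4.35% lower. The proline dehydrogenase gene ERD5 was higher (12.88, 17.61 and 26.54 FPKM with AMF4, against 2.62, 2.54 and 2.61 FPKM with DMSO), whereas the proline synthesis gene P5CS1 had 122, 99.4 and 19.6 FPKM with AMF4, against 58.0, 49.9 and 31.4 FPKM with DMSO. The groups of P5CS1 overlapped and it was not called. Of 6 galactinol and raffinose genes GOLS1, GOLS2 and SIP2 were higher, GOLS1 not without AMF4 replicate 2, DMSO replicate 2 or DMSO replicate 3. The lysine-breakdown gene LKR had 25.1, 26.4 and 23.7 FPKM with AMF4, against 1.12, 1.37 and 3.26 FPKM with DMSO. Jasmonate-linked VSP2, which encodes a vegetative storage protein, had 168, 888 and 216 FPKM with AMF4, against 51.6, 2.84 and 23.0 FPKM with DMSO, with wide spread in both groups. The lipid transfer protein gene LTP4 had 671, 253 and 288 FPKM with AMF4, against 22.8, 7.09 and 38.4 FPKM with DMSO. In the ethylene-linked ERF branch of defence 4 of 8 genes were lower, 1 without AMF4 replicate 3 and 2 without DMSO replicate 3. With all libraries 0 were higher, and the highest log2 fold change was 0.94. Without AMF4 replicate 2 the fit called 2 higher, and it called 1 higher without AMF4 replicate 3 or without DMSO replicate 3. PR4 had 45.1, 26.3 and 13.8 FPKM with AMF4, against 89.8, 99.8 and 299 FPKM with DMSO, and the defensin genes PDF1.2b and PDF1.3 were lower too, though neither was called without AMF4 replicate 3 (adjusted p = 0.0876 and 0.107 from limma). Of glutathione transferase genes 0 of 23 were called by limma, with 6 at an unadjusted p under 0.05, against 7569 of all 18521 genes tested. The germin-like gene GER3 had 20.4, 10.5 and 2.7 FPKM with AMF4, against 106, 241 and 170 FPKM with DMSO, a log2 fold change of -4.08.

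Ribosomal protein genes, a group taken by the files' gene descriptions after their values had been seen, made up 23.2% of the lower DEGs. Of 311 tested 187 were lower and 0 higher, and the median log2 fold change was -1.22. For 245 of them all AMF4 libraries lay below all DMSO libraries, against 14.6% over all genes tested. The 364 listed summed to 25880, 22556 and 15917 FPKM in the AMF4 libraries, against 55781, 53393 and 51034 FPKM in the DMSO libraries. Every DMSO library was thus about as high as the others of its group and well above every AMF4 library. RPS6 (AT4G31700), of the small subunit, had 55.8, 42.3 and 32.2 FPKM with AMF4, against 154, 216 and 147 FPKM with DMSO. The number of lower genes was 161 to 198 in the 6 fits without 1 library. The same sum was 20781 to 24406 FPKM with AMF1β and 22428 to 28719 FPKM with ABA at 6 h, which share the DMSO libraries as controls. At 24 h it was 27902 and 23913 FPKM with AMF4, against 27897, 20784 and 39885 FPKM with DMSO, so that the 3 DMSO libraries of 6 h were above every other library given here. At 24 h the group's median log2 fold change was 0.05 and 0 were lower. Many of these genes have near-identical copies, and 1, AT3G08520, was listed at 0 in all 3 AMF4 libraries and at 0, 2589 and 2138 FPKM with DMSO. An exact 0 in such a table can be a failed estimate. The 4 plastid chaperonin genes, taken in the same way, were all lower, with CPN20 at 115, 89.9 and 66.8 FPKM with AMF4, against 350, 365 and 353 FPKM with DMSO.

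**Figure D3:**
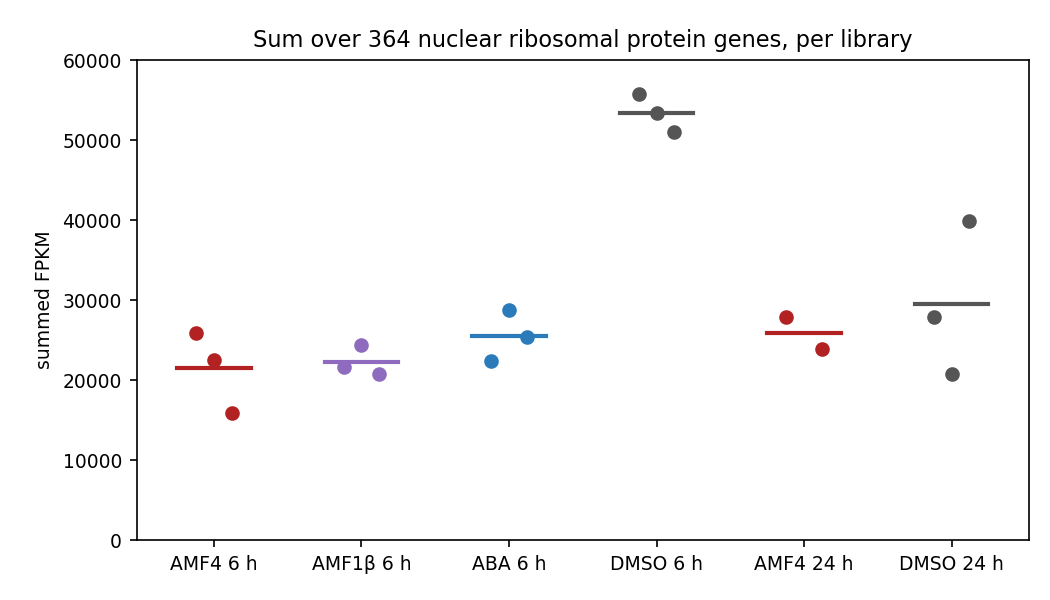
Summed FPKM of 364 ribosomal protein genes in each library (points) with the group mean (bar), at 6 h for AMF4, AMF1β, ABA and DMSO and at 24 h for AMF4 and DMSO. The DMSO libraries of 6 h sit at 51034 to 55781 FPKM, and the AMF4 libraries of 6 h at 15917 to 25880 FPKM.

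Late anthocyanin genes, also grouped after their values had been seen, were higher in 6 of 9 tested, but their level came mostly from AMF4 replicate 3. PAP1, a MYB activator of anthocyanin synthesis, had 59.9, 123 and 205 FPKM with AMF4, against 29.7, 8.76 and 7.08 FPKM with DMSO. DFR, an enzyme gene of the late pathway, had 1.15, 3.27 and 116 FPKM with AMF4, against 0.50, 0.25 and 0.59 FPKM with DMSO, and was not called (adjusted p = 0.095 from limma). The nudix gene NUDT24 had the same pattern of libraries, with 8.31, 11.8 and 123 FPKM with AMF4, against 1.27, 0.35 and 0.58 FPKM with DMSO. Without AMF4 replicate 3 only 2 of the 9 anthocyanin genes were called, and leaving out any 1 DMSO library left 2 or 3. The early flavonoid gene CHS overlapped between groups, at 16.5, 24.1 and 202 FPKM with AMF4, against 139, 53.4 and 11.6 FPKM with DMSO.

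In the clock list the DMSO libraries were unlike each other. LHY, a morning clock gene, had 0.48, 0.98 and 0.88 FPKM with AMF4, against 27.9, 10.6 and 0.44 FPKM with DMSO, and CCA1, its close relative, had 5.37, 5.48 and 6.13 FPKM with AMF4, against 25.2, 9.32 and 2.24 FPKM with DMSO. In both genes DMSO replicate 3 was below all AMF4 libraries and DMSO replicates 1 and 2 were above them. LHY was called lower and was the single DEG of 23 clock genes, where 4.35% of all genes tested were lower. It was not called without DMSO replicate 1 or without DMSO replicate 2. Its log2 fold change was 0.30 with DMSO replicate 3 as the only control and -2.15 with all. PYL2 also set DMSO replicates 1 and 2 of 6 h, at 209 and 67.8 FPKM, apart from the other 10 libraries of 6 h. Those had 0.997 to 2.89 FPKM, and all but DMSO replicate 3 came from plants treated with ABA or an agonist. The PYL2 values of replicates 1 and 2 lay within the 37.2 to 472 FPKM of the 17 libraries of 24 and 72 h. For LHY and CCA1 the same replicates lay below those later libraries, which had 105 to 294 and 119 to 214 FPKM. Hours of the day at collection are not given in the labels, and their part in the result was not tested.

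AMF4 was compared with AMF1β and with ABA at the same dose and time, 2 pairs in all. Against AMF1β, the other fluorinated compound, 0 of 18521 genes were called by limma. An unadjusted p under 0.05 was given to 1357 of them, where with no difference a share of 0.05 would have it. Without AMF4 replicate 3 this comparison gave 128 DEGs, 119 of them higher with AMF4. A missing call does not show that the compounds act alike. The 95% interval of the difference (AMF4 minus AMF1β, log2) ran from 0.07 to 1.8 for HAI1, from -0.15 to 1.35 for RAB18, from 0.09 to 1.90 for RD29B and from -1.08 to 0.05 for PYL4. Such intervals are for single genes, with no adjustment for the number of genes tested. For HAI1 and for RD29B the adjusted p was 0.675 from limma.

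Against ABA, 56 genes were higher with AMF4 (0.302%) and 38 lower (0.205%), a count that depended on single libraries, with 364 DEGs without AMF4 replicate 3, 62 without AMF4 replicate 2, 18 without ABA replicate 1 and 27 without ABA replicate 3. With only the 6 libraries of the pair in the fit limma called 0, with 2327 genes at an unadjusted p under 0.05. Of the listed genes 9 were called. The defensin gene PDF1.2 had 65.9, 91.5 and 41.8 FPKM with AMF4, against 8.97, 5.04 and 7.62 FPKM with ABA (difference 3.00, interval 1.58 to 4.42, adjusted p = 0.0366 from limma). ERD5 had 12.88, 17.61 and 26.54 FPKM with AMF4, against 8.41, 5.77 and 7.69 FPKM with ABA, and ALMT12 had 7.50, 8.92 and 5.90 FPKM with AMF4, against 2.29, 3.72 and 3.58 FPKM with ABA. In all 3 genes the groups did not overlap. UGT71B6, ECP63 and CYCD1;1 were also higher with AMF4. On the other side, LKR had 25.1, 26.4 and 23.7 FPKM with AMF4, against 101, 55.2 and 128 FPKM with ABA (difference -1.8, interval -2.65 to -0.95), and DI21 and the senescence gene SAG29 were lower with AMF4 as well. RD29B had 36.2, 21.8 and 10.8 FPKM with AMF4, against 61.5, 35.2 and 72.8 FPKM with ABA, and was not called. Its unadjusted interval was -2.26 to -0.45, and its adjusted p was 0.0959 from limma.

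**Figure D4:**
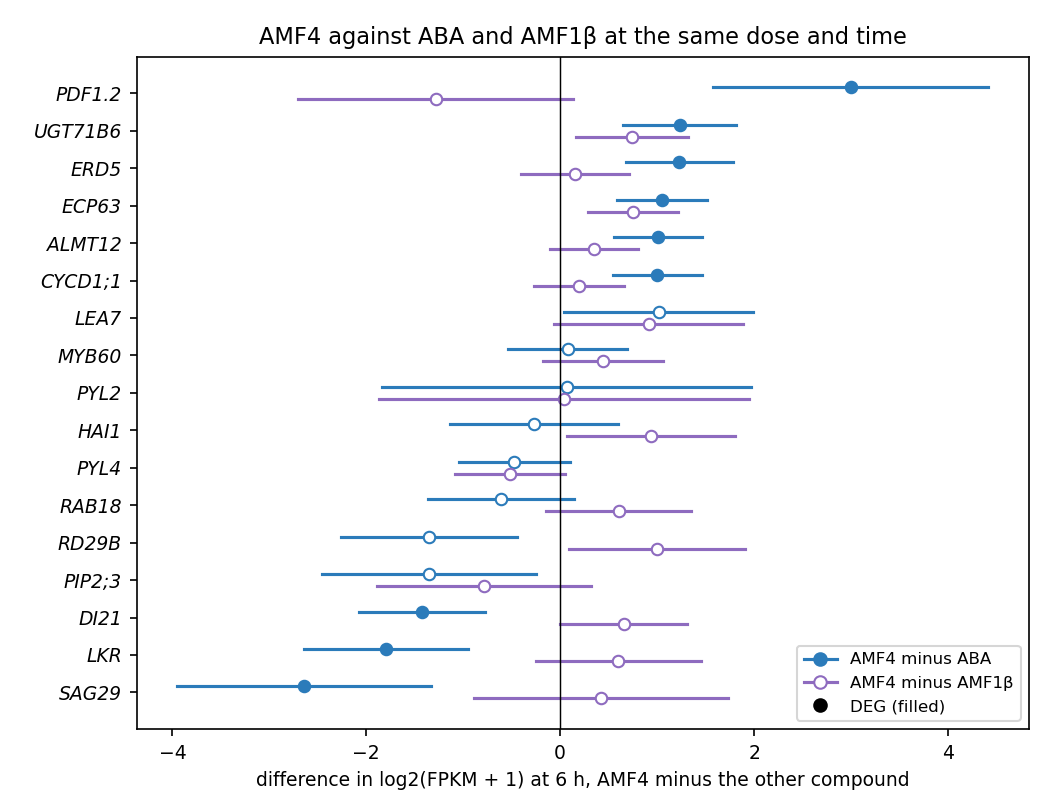
Difference in log2(FPKM + 1) at 6 h with its 95% interval (for single genes, unadjusted) for 17 genes, as AMF4 minus ABA (blue) and AMF4 minus AMF1β (purple), with filled points for DEGs. Of these genes 9 are called against ABA, from PDF1.2 at 3.00 to SAG29 at -2.64, and 0 against AMF1β.

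At 24 h, with 2 AMF4 and 3 DMSO libraries that share none with 6 h, 392 genes were higher (2.12%) and 438 lower (2.36%). These counts and the shares built on them depended on both AMF4 libraries, with 200 higher and 194 lower without AMF4 replicate 1 of 24 h, and 229 and 157 without replicate 2. Of the 780 genes higher at 6 h 203 were also higher at 24 h, which is 26.0% of the first set and 51.8% of the second, and of the 806 lower 96 were also lower, which is 11.9% and 21.9%. The difference between the AMF4 effects at 24 and 6 h was called for 585 genes above 0 (3.16%) and 520 below 0 (2.81%). Of the 780 higher genes 166 had a called difference toward 0, and of the 806 lower genes 333 did. LEA7 (log2 fold change 3.97 at 24 h), HAI1 (3.79), RD29B (4.15), CYP707A2 (3.43) and RAB18 (3.03) were still higher at 24 h, and XTH31 (-4.32) and PYL4 (-2.41) still lower, with no called difference between the times. RD29A, in contrast, had 1864, 2330 and 1759 FPKM with AMF4 at 6 h, against 774, 725 and 336 FPKM with DMSO, and at 24 h it had 166 and 188 FPKM with AMF4, against 181, 186 and 120 FPKM with DMSO. ABI2, ABF3, ABI5, MYB102, RD20, ERD7, CIPK25 and MAPKKK17 likewise had a smaller effect at 24 h. Some genes went the other way, such as SIP2, which encodes a galactosidase that acts on raffinose, at 50.5, 48.9 and 41.0 FPKM with AMF4 at 6 h, against 16.9, 18.5 and 14.2 FPKM with DMSO, and at 120 and 130 FPKM with AMF4 at 24 h, against 5.78, 5.76 and 5.62 FPKM with DMSO. Heat shock genes were higher in 2 of 17 at 6 h and 7 of 17 at 24 h, with 4 called differences upward. Starch breakdown genes were called higher in 2 of 15 at 6 h (1 without DMSO replicate 3) and lower in 4 of 15 at 24 h, with 5 called differences downward. Ribosomal protein genes had 170 called differences upward of 311. The count of called differences was 1105 in all, 409 without AMF4 replicate 1 of 24 h, 554 without AMF4 replicate 2 and 588 without DMSO replicate 2 of that time, and fell to 5 when only the 11 libraries compared were fitted.

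**Figure D5:**
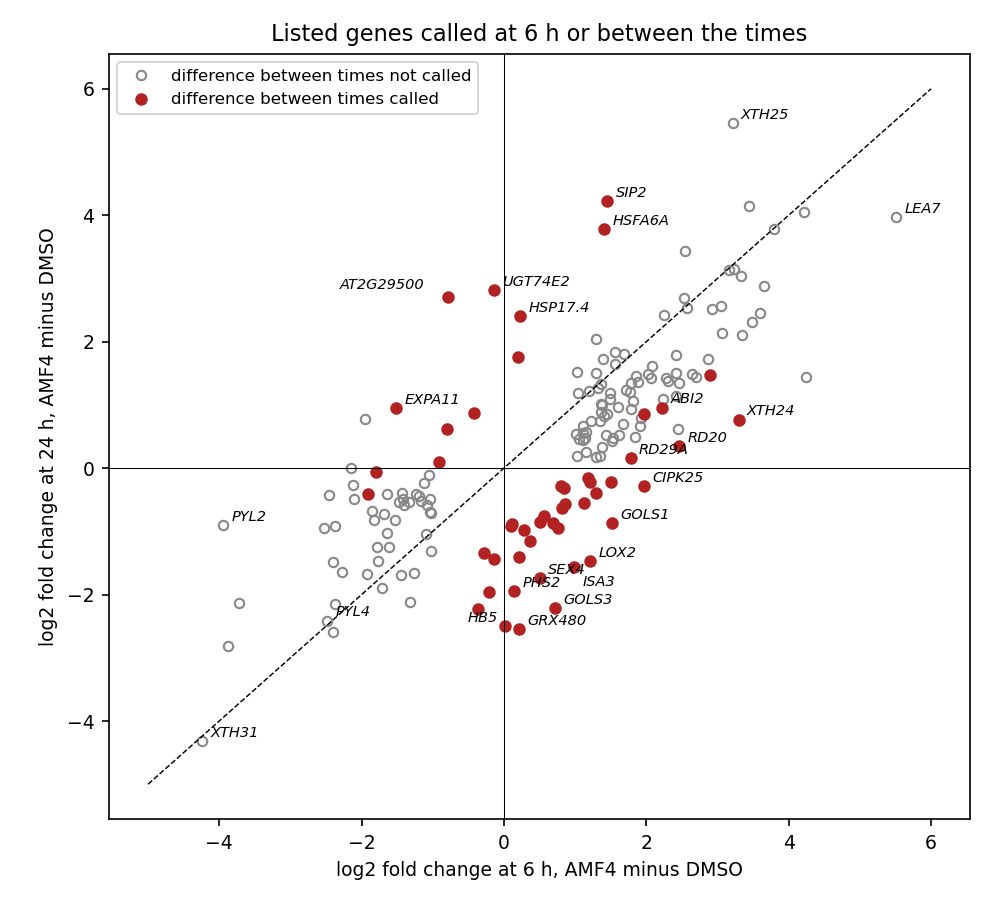
Log2 fold change of AMF4 minus DMSO at 24 h (vertical axis) against that at 6 h (horizontal axis) for the 177 listed genes called at 6 h or between the times, with the 49 whose difference between times was called in red and the dashed line at equal effects. XTH31 and PYL4 lie on the line at the lower left, SIP2 and HSFA6A above it, and RD29A, RD20 and XTH24 below it.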

How the data were processed

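RNA from leaves of Col-0 plants was sequenced by the authors on a HiSeq2500 instrument, aligned to TAIR10 with TopHat and summarised with Cufflinks, and the deposited values are FPKM per gene. Tool versions and the strand setting were not given in the sources used here, and reads of near-identical genes may be split between them. The methods of the study state duplicate biological replicates, while the labels give 3 libraries for each group at 6 h, all of which were used. Which of the 3 are the biological duplicates, and whether they stem from different pots or sprays, is not stated, and the p-values cover the spread among these libraries. FPKM values hold no read totals, and precision is limited by the number of libraries.

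Values were analysed as log2(FPKM + 1) with limma 3.58.1 in R 4.3.3, with a mean for each of 12 groups over 29 libraries, which share 1 estimate of the spread (17 residual and 3.82 prior degrees of freedom). A gene was kept if 2 or more libraries had 1 FPKM or more of it. Tests were two-sided with Benjamini-Hochberg adjustment in each comparison, and DEGs passed 0.05 after adjustment with a fold change over 2 or under 0.5. Genes named are the 12 per direction with the largest fold change that hold without AMF4 replicate 1, do not overlap between groups and have a symbol, together with leading members of 43 gene lists, genes the study names, and listed genes with the largest differences from ABA or between 24 and 6 h. The members and lists were chosen with earlier results of these data known. Genes outside that rule (WUS, COBL9, LHCB1.3, ABA1, AAO3, ribosomal, chaperonin, anthocyanin and flavonoid genes) were chosen after their values were seen. Promoters come from RefSeq's TAIR10.1 tables, and symbols from these and the authors' table. Alternatives were other pseudocounts, filters, scalings, sets of libraries in the fit, fold changes of mean FPKM, the replicate block and leaving out libraries.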

Additional observations from a re-analysis of the deposited data

Results flagged for a closer look

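The effect of AMF4 against DMSO at 24 h differed from that at 6 h for 1105 genes by the test of the difference itself in limma. Among named genes the effect at 24 h lay above that at 6 h, as a difference of log2 fold changes, for GASA6 (3.75), AT2G29500 (3.48), UGT74E2 (2.96), SIP2 (2.78), EXPA11 (2.46), HSFA6A (2.38), SAUR65 (1.49) and RVE7 (1.3). AT2G29500 encodes a small heat shock protein and HSFA6A a heat shock factor, and EXPA11 is an expansin gene. It lay below that at 6 h for GOLS3 (-2.92), GRX480 (-2.76), LOX2 (-2.68), ISA3 (-2.56), XTH24 (-2.53), GOLS1 (-2.39), CIPK25 (-2.25), LBD1 (-2.21) and RD20 (-2.12). These include galactinol synthases, the jasmonate synthesis gene LOX2 and the starch debranching gene ISA3. Differences below 0 were also called for ERD7 (-1.73), MAPKKK17 (-1.69), AT5G38710 (-1.68), RD29A (-1.62), ABI5 (-1.43), MYB102 (-1.42), ABCG25 (-1.34), ABI2 (-1.27) and ABF3 (-1.11), among which ABI2 is a clade A PP2C and ABF3 and ABI5 are bZIP factors of ABA signalling. The count of 1105 was 409 and 554 without AMF4 replicate 1 or 2 of 24 h, 588 and 1616 without DMSO replicate 2 or 3 of 24 h, and 830 with DMSO replicates 1 and 2 of 6 h left out, which differed from replicate 3 in clock genes.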

How the results depend on the processing

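Of 188 named genes 136 were called, and 84 of these under every setting tried. Among 3561 values of named genes under alternatives 172 lost and 31 gained the call. The 2 that reversed were LHY (0.30) and CCA1 (1.04), both with DMSO replicates 1 and 2 of 6 h left out, where the lone control is assumed to vary like the other groups. Leaving out 1 library gave 708 to 901 higher and 631 to 996 lower DEGs for AMF4 against DMSO at 6 h, 18 to 364 DEGs against ABA, 0 to 128 against AMF1β, 200 to 372 higher and 157 to 435 lower at 24 h, and 409 to 1616 differences between times. With only the groups compared in the fit, AMF4 against DMSO at 6 h gave 597 higher and 675 lower DEGs. In that fit 23 named genes lost the call. Median-of-ratios scaling gave 691 higher and 937 lower at 6 h, and log2(FPKM + 0.1) gave 1139 and 936. Fold changes of mean FPKM with the adjusted p gave 1185 higher at 6 h and 151 against ABA. With no p they gave 1957 higher at 6 h, 1649 against ABA, 1042 against AMF1β, 897 higher and 1603 lower at 24 h, and 3988 between times. The count against ABA was 55 with no filter, 23 with only the 6 h libraries and 0 with only the groups compared (2327 genes at an unadjusted p under 0.05), and that between times 5 with only the groups compared (3336 genes at an unadjusted p under 0.05). Same-numbered AMF4 and DMSO libraries did not deviate together (r of -0.036, 0.107 and 0.048 across genes), and the replicate block gave 779 higher and 803 lower at 6 h, 90 against ABA, 0 against AMF1β, 369 higher and 479 lower at 24 h, and 1140 between times. Causes of these shifts were not tested. The shallowest libraries, AMF4 replicate 1 and DMSO replicate 1, limit what low genes can show.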
